A study of Mus musculus with 9 samples.

Results

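The genes described here are 10 that are best known from neurons: the neurofilament genes Nefl, Nefm, Nefh and Ina, the stathmin genes Stmn1, Stmn2, Stmn3 and Stmn4, the beta-tubulin gene Tubb3 and the growth-cone gene Gap43. They were taken by symbol, 10 of the 24063 gene symbols in the count tables, and each of them had 1 transcript there. The set was chosen by family after the fold changes of Nefl, Nefm and Stmn2 had been seen among the largest falls with 1C-MIM. The levels of these 3 genes in that group are therefore given as a description without a p-value, and the other genes, which joined by family, were tested.

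The cells were C2C12, an established mouse myoblast line of wild-type genotype that forms muscle fibres when serum is low. Cells of the 3 groups were differentiated in DMEM with 2% FBS and are labelled day 3, with 3 libraries per group. Control cells received no addition, 1C-MIM cells received 6 metabolites of the one-carbon network (One-Carbon Metabolite Induced Medium), and scramble cells received 6 metabolites outside that network. The sources used here name neither the metabolites nor their doses, nor do they say that replicates were separate cultures. The p-values therefore measure spread among libraries that may be technical replicates.

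Neurofilaments are intermediate filaments of axons. Nefl, Nefm and Nefh encode the light, medium and heavy chains, Ina encodes alpha-internexin, and the chains assemble together and help set the width of the axon. Stathmins bind soluble tubulin dimers and promote the disassembly of microtubules. Stmn1 is found in many dividing cells, while Stmn2, Stmn3 and Stmn4 carry a membrane-anchoring stretch and are mostly neuronal. Tubb3 encodes the class III beta-tubulin widely used as a neuron marker, and Gap43 encodes a membrane protein of growing axon tips.

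Because reads of related genes can be confused, the coding sequences of the families were compared (GENCODE M21 transcripts on GRCm38, matched by RefSeq accession for 10 of 10 genes). The stretch of 60 bases in which the 4 stathmins are most alike is shown for each of them, in the 5′ to 3′ direction, with capitals at bases that differ from Stmn2. It covers coding positions 343 to 402 of Stmn2, counted from the start codon.
Stmn2: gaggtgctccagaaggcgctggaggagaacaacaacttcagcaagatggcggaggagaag
Stmn1: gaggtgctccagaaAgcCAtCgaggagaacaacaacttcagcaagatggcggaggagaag
Stmn3: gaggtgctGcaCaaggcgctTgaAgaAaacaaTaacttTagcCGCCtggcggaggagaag
Stmn4: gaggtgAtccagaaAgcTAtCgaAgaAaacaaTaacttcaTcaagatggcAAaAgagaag
Stmn1 differs from Stmn2 at 4 of these bases, Stmn3 at 11 and Stmn4 at 12. Over the aligned coding sequence the stathmin pairs were 70.2% to 74.5% identical, and the longest identical run was 43 bases, between Stmn1 and Stmn2.

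The neurofilament pairs were 69.4% to 76.0% identical, with longest identical runs of 13 to 23 bases. Tubb3 was closer to its relatives, at 82.6% to 86.6% identity with 6 other beta-tubulin genes and identical runs of up to 47 bases. In the same annotation 1108 of the 3380 exon bases of Nefl (32.8%) lie over exons of Nefm on the opposite strand, while the counted transcript of Nefm has none in common with another gene. Ina shares 456 of 3240 exon bases (14.1%) with Nt5c2 on the opposite strand, and Stmn1 shares 66 bases with the miRNA gene Gm23634. The sources used here do not say whether strand entered the counting, so the Nefl and Ina values are uncertain to that extent.

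Depth was 29.0 to 33.2 M counts per library with 1 transcript per symbol. Of the 10 genes, 8 passed the filter on low counts, and Ina and Stmn3 did not. Levels are counts scaled to the normalized library size (CPM), given as mean ± SD over 3 libraries. Fold changes are log2 values ± SE from edgeR's quasi-likelihood test, with Benjamini-Hochberg adjustment over the 14006 genes tested. Between 1C-MIM and control 47.3% of the tested genes were called at an adjusted p below 0.05, and between 1C-MIM and scramble 46%. Against this background the 8 tested genes were called in both comparisons, 7 lower and 1 higher with 1C-MIM, a count that includes the 3 genes whose fall led to the set. For none of the 8 did a 1C-MIM library overlap with either other group. For the 3 genes chosen for their fall this gap follows from the choice. Only the genes that joined by family can be read beside the shares that follow. Over all tested genes such a gap was found for 55.5% against control (28.2% lower, 27.3% higher) and 59.5% against scramble (29.9% lower, 29.7% higher). Both comparisons use the same 1C-MIM libraries.

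The light and medium neurofilament chains were lower with 1C-MIM, and the heavy chain, at a far lower level, was higher. Nefl stood at 33.6, 79.3 and 56.1 CPM in control replicates 1 to 3, at 7.29, 8.29 and 9.89 CPM in 1C-MIM and at 41.3, 48.9 and 50.4 CPM in scramble. The highest 1C-MIM library lay below the lowest library of either other group, and the control libraries were the most spread. The log2 fold change was -2.73 ± 0.32 against control and -2.46 ± 0.32 against scramble, a mean 6.64 times lower than control. In bulk RNA, fewer cells with a transcript and less of it per cell cannot be told apart.

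Nefm, which encodes the medium chain, stood at 19.6, 32.5 and 28.9 CPM in control, at 3.84, 4.32 and 4.64 CPM in 1C-MIM and at 25.4, 27.2 and 27.0 CPM in scramble. Its 1C-MIM libraries did not overlap with either other group. The log2 fold change was -2.66 ± 0.18 against control and -2.63 ± 0.18 against scramble. The ratio of Nefl to Nefm, from deposited TPM values, which are scaled by transcript length, was 3.28 ± 0.60 in control, 3.20 ± 0.21 with 1C-MIM and 2.85 ± 0.20 with scramble (SD, n = 3). The range of this ratio in control, 2.76 to 3.93, took in that of 1C-MIM, 3.07 to 3.44.

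Nefh, the heavy chain, was a rare transcript in each group. It had 18, 9 and 12 counts in the control libraries, 49, 25 and 36 in 1C-MIM and 15, 17 and 15 in scramble, or 0.401 ± 0.15, 1.27 ± 0.43 and 0.520 ± 0.056 CPM. The 1C-MIM libraries were above those of both other groups without overlap. Nefh rose by 1.65 ± 0.33 on the log2 scale against control (edgeR adjusted p = 0.0021) and by 1.28 ± 0.33 against scramble (adjusted p = 0.0079). Per transcript length, Nefh stood at 0.00447 ± 0.0035 of the Nefl level in control and 0.0774 ± 0.036 in 1C-MIM. In scramble this ratio was 0.00557 ± 0.00046, and Nefh lay below the light chain in every library. The ratio contains Nefl, which was chosen for its fall, so its difference between groups is a description.

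Ina was near the limit of detection, with 6, 5 and 2 counts in control, 7, 5 and 4 in 1C-MIM and 3, 1 and 2 in scramble. These counts are too few to compare, and Ina was not tested.

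**Figure D1:**
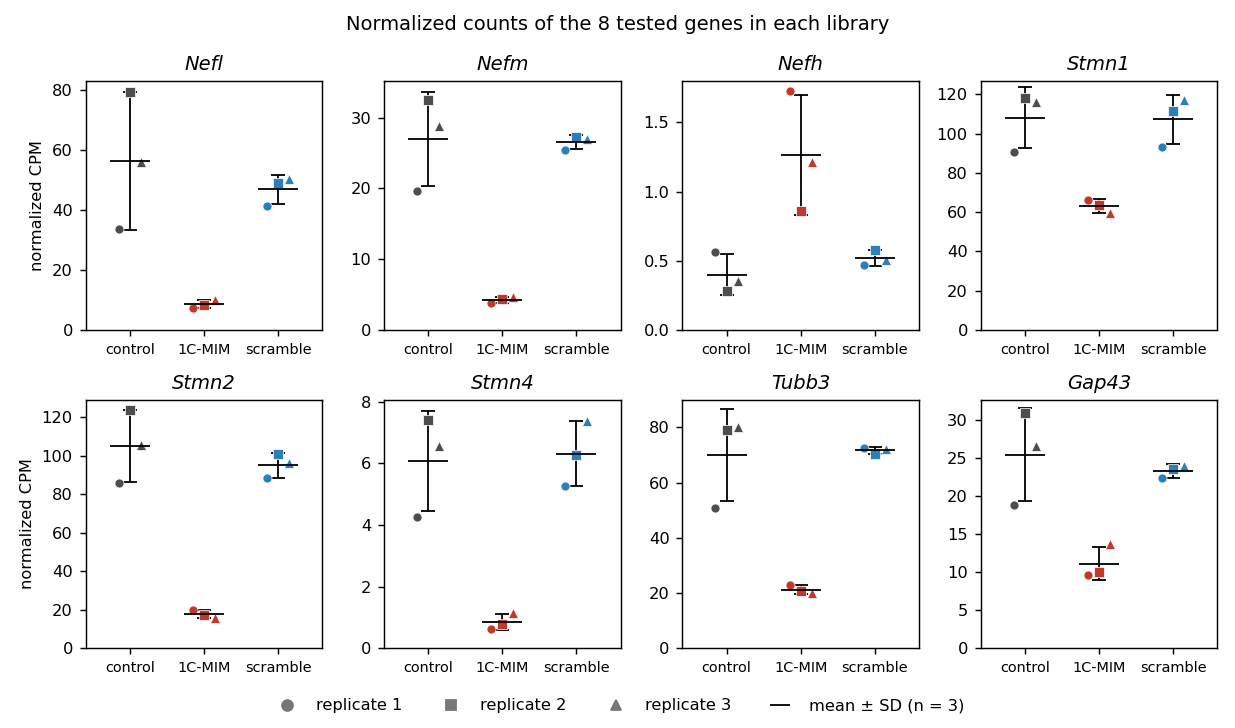
Normalized counts in CPM (vertical axes, linear from 0) of the 8 tested genes in control, 1C-MIM and scramble, with 1 symbol per library and the mean ± SD of 3 libraries. The 1C-MIM libraries lie below the other 6 in every panel but that of Nefh, where they lie above (0.863 to 1.73 CPM against 0.279 to 0.580 CPM).

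Among the stathmins, the widely expressed Stmn1 was called lower at a modest fold change, and the neuronal Stmn2 and Stmn4 stood several times lower. Stmn2 was at 85.9, 123 and 105 CPM in control, at 20.0, 17.3 and 16.0 CPM in 1C-MIM and at 88.2, 101 and 96.0 CPM in scramble. The 1C-MIM libraries formed a narrow band well under the other 6. The log2 fold change was -2.56 ± 0.14 against control and -2.42 ± 0.14 against scramble.

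Stmn4, another membrane-anchored stathmin, stood at 4.25, 7.40 and 6.57 CPM in control, at 0.634, 0.794 and 1.14 CPM in 1C-MIM and at 5.26, 6.28 and 7.37 CPM in scramble. The 1C-MIM values rest on 18, 23 and 34 counts. Stmn4 fell by 2.81 on the log2 scale against control (SE 0.27, edgeR adjusted p = 1.9e-05) and by 2.87 against scramble (SE 0.27, adjusted p = 2.0e-05), with no overlap. The interval of its log2 fold change against control (95%) was -3.41 to -2.22.

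Stmn1 stood at 90.5, 118 and 116 CPM in control, at 66.2, 63.4 and 59.3 CPM in 1C-MIM and at 93.2, 112 and 117 CPM in scramble. It fell by 0.78 on the log2 scale against control (SE 0.11, edgeR adjusted p = 0.00034) and by 0.77 against scramble (SE 0.11, adjusted p = 0.00040). The groups did not overlap, although the gap between the lowest control and the highest 1C-MIM library was small beside the gap for Stmn2. Stmn3 had 1, 1 and 0 counts in control, 0 in each 1C-MIM library and 2, 3 and 1 in scramble, and it was not tested. A count of 0 allows a level of up to 0.0892 to 0.106 CPM (3 counts), by counting error only, so these libraries give no fold change for it.

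The make-up of the stathmin family differed with 1C-MIM. Of the summed stathmin TPM, Stmn1 made up 63.1% ± 1.7 in control, 85.6% ± 0.53 with 1C-MIM and 64.7% ± 1.4 with scramble (SD, n = 3). Stmn2 made up 33.9% ± 1.5, 13.4% ± 0.80 and 32.0% ± 1.6 in the same order, and Stmn4 3.00% ± 0.38, 1.02% ± 0.37 and 3.26% ± 0.28. The summed TPM itself was 224 ± 28 in control, 97.7 ± 6.3 with 1C-MIM and 216 ± 18 with scramble. These shares contain Stmn2, which was chosen for its fall, and were not tested.

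**Figure D2:**
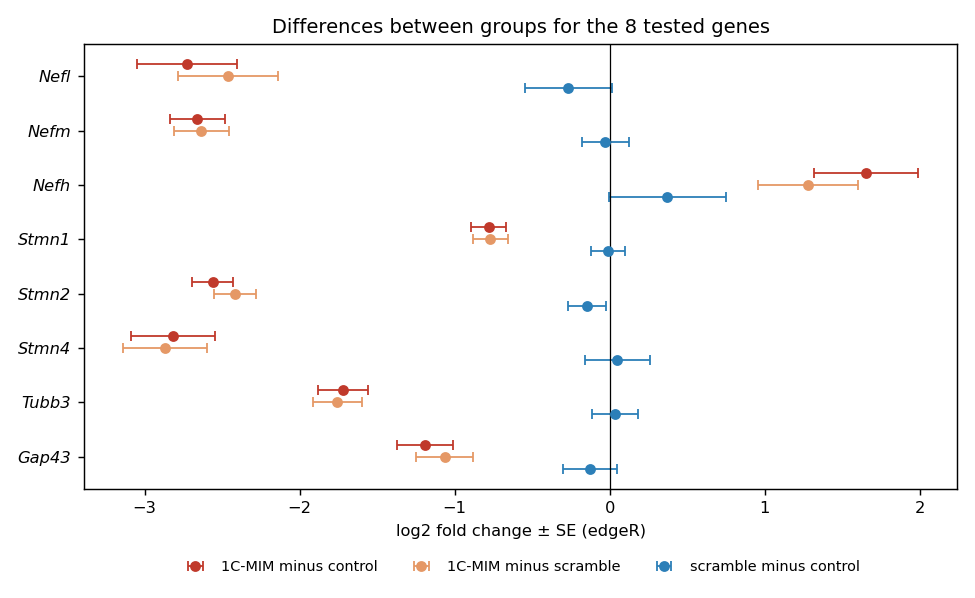
Log2 fold change ± SE (horizontal axis, edgeR) of the 8 tested genes in the 3 comparisons between groups. The 2 comparisons with 1C-MIM lie side by side for each gene, from -2.87 (Stmn4) to 1.65 (Nefh), while scramble minus control lies between -0.27 and 0.37.

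Tubb3 stood at 50.7, 79.2 and 80.1 CPM in control, at 23.1, 20.7 and 20.0 CPM in 1C-MIM and at 72.6, 70.3 and 72.2 CPM in scramble. It fell by 1.72 on the log2 scale against control (SE 0.16, edgeR adjusted p = 3.8e-05) and by 1.76 against scramble (SE 0.16, adjusted p = 3.9e-05). The scramble libraries lay close together, while control replicate 1 was the lowest control.

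Most of the other tubulin genes fell too. Of 13 tubulin genes other than Tubb3, 11 were tested, and 8 fell and 1 rose against control, where 24.3% of all tested genes were called lower and 22.9% higher. Their median log2 fold change was -0.67, against -0.01 over all tested genes. Tubb5, a widely expressed beta-tubulin, fell from 1178 ± 142 to 615 ± 45 CPM, by 0.94 on the log2 scale (SE 0.09, edgeR adjusted p = 1.6e-05). The alpha-tubulins Tuba1a and Tuba1c fell by 0.86 and 0.77, and Tubb4b fell by 0.72. Tubb6 was the gene that rose, from 394 ± 30 to 478 ± 68 CPM (0.28 ± 0.10, adjusted p = 0.035), and it was not called under scaling by library size alone, nor against scramble (0.22 ± 0.10, adjusted p = 0.082). It was also not called against control in fits of these 2 groups alone, or without control replicate 2 or 3, 1C-MIM replicate 1 or scramble replicate 2.

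As a share of the summed TPM of 8 beta-tubulin genes, Tubb3 made up 2.62%, 3.66% and 3.78% in control, 1.41%, 1.48% and 1.38% in 1C-MIM and 3.47%, 3.28% and 3.43% in scramble. The share in 1C-MIM was below every library of the other groups. The summed beta-tubulin TPM was 1669 ± 45 in control, 1221 ± 112 with 1C-MIM and 1699 ± 20 with scramble. In 1C-MIM the share of Tubb6 was 31.5% ± 1.7 against 18.8% ± 2.5 in control, and that of Tubb5 was 26.8% ± 0.40 against 36.9% ± 2.5.

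**Figure D3:**
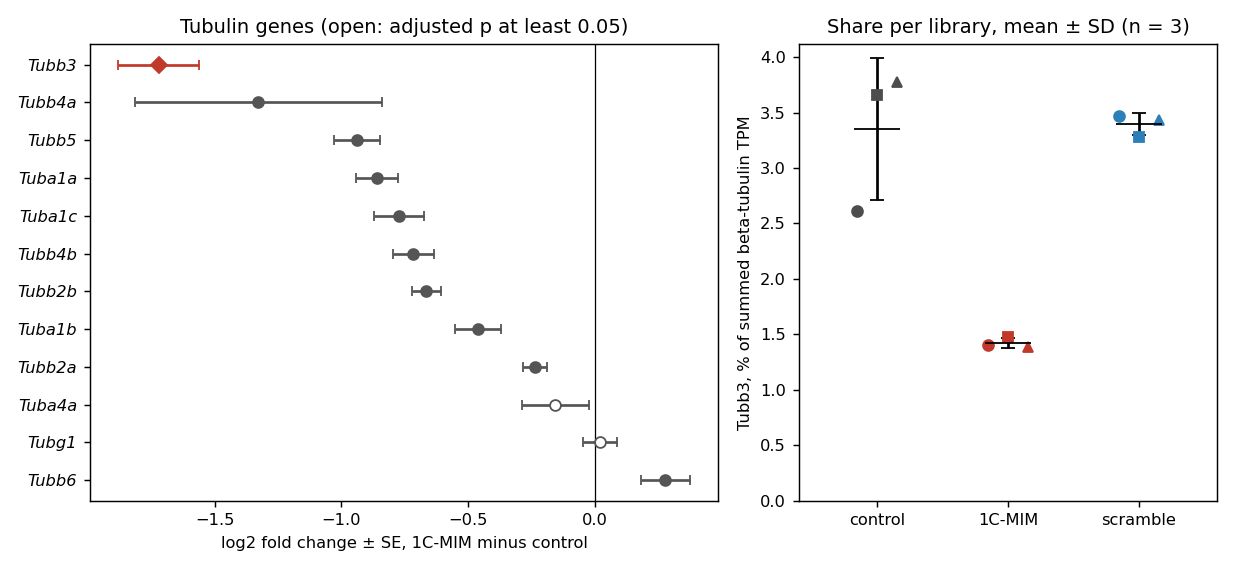
Left, log2 fold change ± SE (edgeR, 1C-MIM minus control) of tubulin genes, with open symbols for genes not called. Right, Tubb3 as a percentage of the summed beta-tubulin TPM in each library, with mean ± SD of 3 libraries, at 1.38% to 1.48% in 1C-MIM and 2.62% to 3.78% in control.

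Of the 10 genes, 3 have an entry in the RefSeq promoter table (GRCm38.p6), and Tubb3 is the one of these that was called. The 250 bases before its start are shown because this stretch precedes the transcript that fell (chr8:123411303-123411552, plus strand), with capitals at matches to GGGCGG and TATAA on either strand.
Tubb3 promoter: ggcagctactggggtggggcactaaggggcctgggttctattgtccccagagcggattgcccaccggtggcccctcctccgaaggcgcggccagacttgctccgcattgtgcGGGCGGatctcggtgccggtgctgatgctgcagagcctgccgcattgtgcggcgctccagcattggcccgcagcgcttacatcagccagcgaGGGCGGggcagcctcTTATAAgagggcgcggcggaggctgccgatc
It holds GGGCGG 2 times and TATAA 2 times, the latter as overlapping matches on both strands of 1 site, and it holds no CANNTG. Over 32851 promoters of the same length, 32.7% hold GGGCGG, 22.8% hold TATAA and 66.2% hold CANNTG.

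Gap43, which encodes a membrane protein of growth cones, stood at 18.9, 30.9 and 26.6 CPM in control, at 9.69, 10.05 and 13.7 CPM in 1C-MIM and at 22.3, 23.6 and 24.0 CPM in scramble. It fell by 1.19 on the log2 scale against control (SE 0.18, edgeR adjusted p = 0.00059) and by 1.06 against scramble (SE 0.18, adjusted p = 0.0012). No 1C-MIM library overlapped with another group. Of 5 related growth-cone membrane genes, 3 were tested: Basp1 fell by 0.58 (adjusted p = 0.0020) and Marcks rose by 0.37 (adjusted p = 0.0020), both protein kinase C substrates, and the third was not called. With the replicate block, or without control replicate 3 or 1C-MIM replicate 1, the list gave 2 genes higher and 1 lower.

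Compared per transcript length with deposited TPM, Stmn1 was the most abundant of the 10 in each group, at 141 ± 16 TPM in control, 83.6 ± 5.0 with 1C-MIM and 140 ± 14 with scramble. In control it was followed by Stmn2 (76.2 ± 11), Tubb3 (56.1 ± 12), Nefl (38.8 ± 15), Gap43 (27.0 ± 5.7), Nefm (11.5 ± 2.5) and Stmn4 (6.80 ± 1.6), and then by Nefh, Ina and Stmn3, each under 1 TPM. Tubb3 and Nefl overlapped over the control libraries, as did Nefl and Gap43, Nefh and Ina, and Ina and Stmn3. Scramble had the same order down to Nefh. In 1C-MIM Tubb3 (17.3 ± 1.4) came above Stmn2 (13.1 ± 1.6) and Gap43 (12.0 ± 2.4) above Nefl (5.97 ± 0.90). Stmn2 and Gap43 overlapped there, and no other neighbours in the order did. The ratio of Tubb3 to Stmn2 was 1.32 ± 0.055 in 1C-MIM and 0.733 ± 0.096 in control, and that of Nefl to Gap43 was 0.498 ± 0.034 and 1.40 ± 0.26, with no overlap between these groups for either ratio. Each ratio contains a gene chosen for its fall (Stmn2 or Nefl), so this gap is a description.

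**Figure D4:**
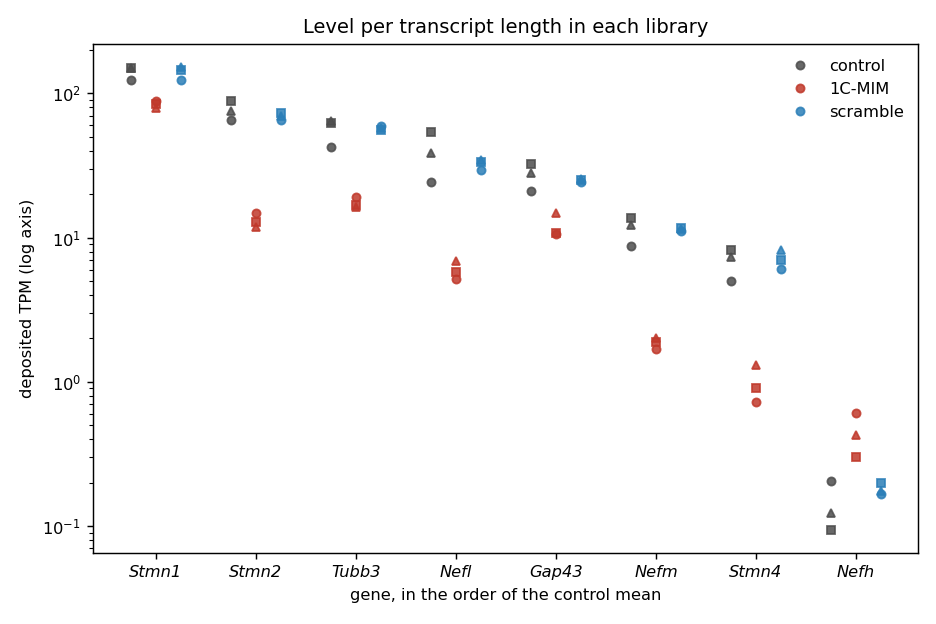
Deposited TPM (log axis) of the tested genes in each of the 9 libraries, ordered by the control mean and coloured by group. Ina and Stmn3, which were not tested, are not drawn. In control the levels span from under 1 TPM for Nefh to a mean of 141 TPM for Stmn1.

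None of the 8 tested genes differed between scramble and control beyond the spread between libraries. Of the 14006 genes tested with edgeR 0 (0%) were called, 482 (3.44%) had an unadjusted p under 0.05, DESeq2 called 30 and limma-voom 0. The unadjusted p of the 8 genes was 0.270 to 0.913, and their adjusted p was 1.00. The interval of the log2 fold change (95%) was -0.36 to 0.31 for Nefm, -0.42 to 0.13 for Stmn2, -0.30 to 0.37 for Tubb3, -0.26 to 0.23 for Stmn1 and -0.42 to 0.52 for Stmn4. It was wider for Nefl (-0.93 to 0.40), Nefh (-0.46 to 1.21) and Gap43 (-0.52 to 0.26). For the genes that joined by family, the log2 fold changes with 1C-MIM lie outside these bounds. This holds for the falls of Stmn4, Tubb3, Stmn1 and Gap43 and for the rise of Nefh. The rise of Nefh against scramble (1.28) lies only just outside.

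Within the control group the genes varied together. Control replicate 1 was the lowest control library for each of the 7 genes that were lower with 1C-MIM and the highest for Nefh, which moved the other way. On the log2 scale it stood -0.99 from the mean of control replicates 2 and 3 for Nefl, -0.71 for Stmn4, -0.65 for Tubb3, -0.64 for Nefm, -0.60 for Gap43, -0.41 for Stmn2 and -0.37 for Stmn1, while Nefh stood 0.73 above. The median over all tested genes was -0.00. In the same library the summed CPM of 9 muscle fibre markers was 7958, against 4324 and 3750 in control replicates 2 and 3, and that of 15 mitosis genes was 2012 against 2649 and 2624. Scramble replicate 1 also had the highest sum of fibre markers of its group (6866, against 4504 and 4568) and was its lowest library for Nefl, Nefm, Stmn1, Stmn2, Stmn4 and Gap43. In that library, unlike control replicate 1, Tubb3 was highest and Nefh lowest. The highest fibre sum in 1C-MIM was also that of replicate 1 (8256, against 7019 and 6505). This was the lowest 1C-MIM library for Nefl, Nefm, Stmn4 and Gap43, but the highest for Stmn1, Stmn2, Tubb3 and Nefh. The part of these marker levels in the results was not tested. Without control replicate 1, the 5 genes that joined by family (Nefh, Stmn1, Stmn4, Tubb3 and Gap43) were called in both comparisons with 1C-MIM.

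**Figure D5:**
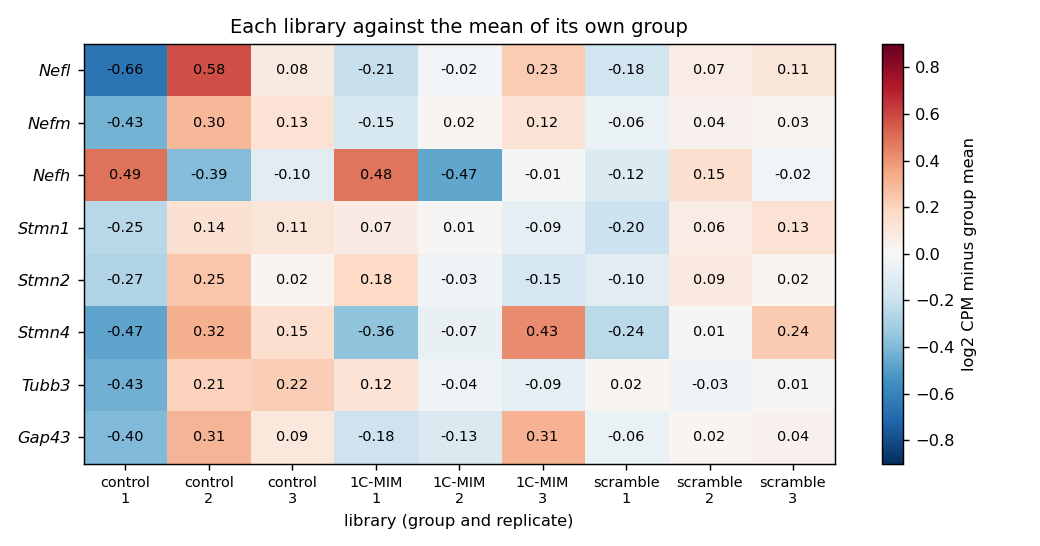
Log2 CPM minus the mean of the library's own group (colour scale) for the 8 tested genes (rows) in the 9 libraries (columns). The widest deviation is -0.66, for Nefl in control replicate 1, where Nefh has the opposite sign.

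The genes around these families were followed in lists. Over all tested genes 24.3% were called lower and 22.9% higher against control, and each list count below is to be read beside these shares. Of 8 tested partners and relatives of neurofilaments, 2 fell and 1 rose against control (median -0.11). Vim, the intermediate filament of mesenchymal cells and myoblasts, fell from 3348 ± 536 to 1769 ± 119 CPM, by 0.92 on the log2 scale (SE 0.11, edgeR adjusted p = 5.8e-05), Plec, a linker of filaments to other structures, fell by 0.24, and Synm, a muscle intermediate filament protein, rose by 1.05 ± 0.18 (adjusted p = 0.00062). Without control replicate 1 the median of this list turned to 0.09, with 2 genes higher and 2 lower. Of 32 tested microtubule-associated proteins and motors, 13 fell and 3 rose (median -0.23), and the counts were 14 and 6 without control replicate 1, 13 and 1 without control replicate 2, and 15 and 1 under scaling by library size alone. Map7 fell by 1.36, the axonal motor gene Kif1a by 0.99 and Vash1 by 0.73, while Vash2 rose by 0.83. Vash1 and Vash2 encode the enzymes that remove the last tyrosine of alpha-tubulin. In this list Vash2 and Vash1 stood on opposite sides in both comparisons with 1C-MIM, 0.72 and -0.73 against scramble.

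Of 17 tested kinases and kinase partners that act on stathmins and neurofilaments, 9 fell and 4 rose, where 24.3% and 22.9% of all tested genes did. Cdk5r1, the activator of the neurofilament kinase Cdk5, rose from 11.9 ± 1.7 to 22.2 ± 2.2 CPM (0.90 ± 0.12, edgeR adjusted p = 0.00013), Cdk1, a mitotic kinase that phosphorylates Stmn1, fell by 0.82, and Pak1 fell by 0.61. Of 14 tested genes known from regenerating axons, 8 fell and 5 rose (median -0.39). Sprr1a, a proline-rich protein of injured neurons, fell from 18.9 ± 5.3 to 2.53 ± 0.83 CPM (-2.90 ± 0.30, adjusted p = 9.5e-05), Atf3 fell by 0.83 and Klf6 by 0.72. The cytokine gene Il6 rose by 2.11 ± 0.57 (adjusted p = 0.013) at a low and scattered level, from 0.632 ± 0.39 to 2.74 ± 1.9 CPM.

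Of the 13 genes of the REST complex and related repressors of neuronal genes, 3 rose and 2 fell (median -0.01). This was no larger a part than over all tested genes, of which 47.3% were called. Rest, which encodes the factor that silences neuronal genes in other cells, rose from 31.8 ± 1.5 to 39.8 ± 0.73 CPM (0.32 ± 0.06, edgeR adjusted p = 0.0011). Its partners Rcor2 and Rcor3 fell by 0.69 and 0.61, while Kdm1a of the same list rose by 0.22 (adjusted p = 0.0050). Of 11 neuronal transcription and splicing factors, 2 were tested and neither was called. Without 1C-MIM replicate 2, 1 of them was called lower against control and against scramble, and under scaling by library size alone 1 was called lower against control.

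Most other markers of neurons were sparse. Of 15 neuron markers in the tables, 5 (Chat, Elavl4, Gad1, Slc32a1 and Th) had 0 counts in each of the 9 libraries and 4 (Gad2, Rbfox3, Snap25 and Syt1) had at most 3. The summed CPM of the list was 39.1 to 66.6 in control, 36.2 to 45.1 in 1C-MIM and 42.2 to 58.1 in scramble. Camk2a held much of this sum and was not called against control. It stood at 44.8, 17.6 and 16.7 CPM in control and at 34.8, 26.4 and 27.4 CPM in 1C-MIM. In scramble Camk2a stood at 34.5, 19.1 and 20.8 CPM. Of 5 tested neuron markers, 2 fell against control: Syn1, a synaptic vesicle protein, from 12.7 ± 1.5 to 4.75 ± 0.66 CPM (-1.42 ± 0.12, edgeR adjusted p = 6.9e-06), and the ubiquitin hydrolase gene Uchl1 from 8.29 ± 0.74 to 3.79 ± 0.25 CPM (-1.13 ± 0.11). Of 4 tested markers of glia and Schwann cells, Ngfr fell by 1.33 and the others were not called. Without 1C-MIM replicate 2 the number called was 0, without control replicate 1 it was 1 higher and 1 lower, and with no filter on low counts 2 lower. Without control replicate 1, or without 1C-MIM replicate 1, 1 of the neuron markers was called higher and 2 lower.

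Markers of muscle and of cell division were followed in the same libraries. Of all tested genes 24.3% were called lower and 22.9% higher against control. All 15 tested mitosis genes fell against control (median -1.07), and their summed CPM was 2012 to 2649 in control, 1053 to 1278 in 1C-MIM and 2177 to 2603 in scramble. Of 9 tested muscle fibre markers, 2 rose against control, a part near that of all tested genes. Myog rose by 1.22 ± 0.15 and Ckm by 1.04 ± 0.22, and without control replicate 1 the number was 4. Without control replicate 3, 1 of the 9 was called lower. With the replicate block 4 were called higher and 1 lower, against control and against scramble alike. Myh8, not called in the main fit, stood lower with 1C-MIM. It was at 220, 104 and 70.8 CPM in control and at 70.0, 54.4 and 52.9 CPM in 1C-MIM. Their summed CPM was 3750 to 7958 in control, 6505 to 8256 in 1C-MIM and 4504 to 6866 in scramble, so control replicate 1 lay within the 1C-MIM range. Of the myoblast markers, Cd34 fell by 1.36 and Myod1 and Pax7 rose by 0.48 and 0.46. The part of these levels in the results for the neuronal cytoskeleton was not tested.

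Against scramble, where 46% of all tested genes were called, the same lists were counted. The falls and rises were 8 and 0 for the tubulins, 3 and 1 for the neurofilament partners, and 12 and 4 for the microtubule-associated proteins and motors. They were 7 and 4 for the kinases, 7 and 5 for the regeneration genes, 4 and 3 for the REST list, and 1 and 1 for the growth-cone genes. Of the neuron markers 2 fell and 1 rose: Slc17a7, a vesicular glutamate transporter named after its values were seen, with a log2 fold change of 1.52 ± 0.47 and means of 0.383 CPM in scramble and 1.11 CPM in 1C-MIM (edgeR adjusted p = 0.020). Of the glial markers 0 were called, and 15 of 15 mitosis genes fell. With the replicate block, with DESeq2, in the fit of these groups alone, or without control replicate 1 or 3 or scramble replicate 1, 1 glial marker was called lower. The tubulin list gave 1 rise without 1C-MIM replicate 2, and 1 rise and 9 falls with the replicate block. The growth-cone list gave 2 rises with the replicate block and without control replicate 1. Without 1C-MIM replicate 3, or without scramble replicate 2, the REST list gave 2 falls. Without 1C-MIM replicate 2 or 3, or scramble replicate 3, the microtubule list gave 2 rises. The call of the rising neuron marker was lost without 1C-MIM replicate 2 or scramble replicate 2. Between scramble and control none of these lists held a called gene.

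The 5 genes whose profile was most like the mean of Nefl, Nefm and Stmn2 over the 9 libraries were Klhdc8a, Cep112, Krt19, Add2 and Hmga2, each with a Pearson r of 0.996 among 10498 genes whose mean reached 5 CPM. The 9 libraries fall into 3 low and 6 high ones for these profiles, so r mostly restates that split, and no p is given. Krt19, a keratin, stood at 16.3 ± 2.9 CPM in control, 2.31 ± 0.082 with 1C-MIM and 13.6 ± 1.1 with scramble. Hmga2, a chromatin protein of growing cells, stood at 103 ± 19, 36.8 ± 2.0 and 94.5 ± 6.8 CPM in the same order. Measured in the same way, r was 0.990 for Stmn4, 0.989 for Tubb3, 0.969 for Stmn1, 0.968 for Gap43 and -0.915 for Nefh.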

How the data were processed

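RNA sequencing was done on 9 C2C12 libraries, made with a SMARTer mRNA-seq kit per the labels' protocols. The submitters' processing notes name STAR, Salmon 1.5.2, Trim Galore 0.6.7, DESeq2 1.28.0, Subread 2.0.1 and featureCounts, StringTie 2.2.1, Picard 2.27.4, bedtools 2.30.0, SAMtools 1.15.1 and the build GRCm39, with no roles. Per the file headers, the deposited tables list 33984 RefSeq transcripts, each with its count, TPM and FPKM. The authors' counts are whole numbers and not normalized. The authors' FPKM values, scaled by transcript length and library total, were not tested. The authors' TPM values served to compare levels between genes. Totals over all transcripts were 47.7 to 54.9 M, above those with 1 transcript per symbol. The sources used here do not say how reads in exons shared by several transcripts were assigned.

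The transcript with the highest mean count stood for each symbol. Counts were tested with edgeR 4.0.16 (limma 3.58.1, R 4.3.3; TMM, filterByExpr, robust quasi-likelihood, all 9 libraries in 1 fit). The filter passed 14006 genes and left out 10057, with 0.0280% of counts. The step was tested on simulated data. Precision rests on 3 libraries per group, and reads without molecular identifiers are not independent molecules. Libraries of a group differed by more than sampling noise (chi-square per degree of freedom 3.27 to 47.6), so no library was counted as a second copy of another. This does not show that they came from separate cultures. Same-numbered scramble and control libraries deviated together (r 0.168 to 0.481 over genes), most of all those numbered 1. Control replicate 3 was closer to scramble replicate 2 (r 0.242) than to scramble replicate 3 (r 0.168). Any such pairing comes from the data and not the labels. With the replicate block 0 genes were called between scramble and control, as without it.

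The genes and lists were chosen with earlier results of these data known. Named are the 10 genes, up to 4 called genes per list by fold change (mean of 1 CPM or more), and the 5 most similar profiles. Tubb6, Camk2a, Myh8 and Slc17a7 are named outside this rule. Svbp, Scn2a and Mymk were not among the symbols. Alternatives were other scalings, filters and tools (limma-voom, DESeq2 1.42.0), fits of 2 groups only, the replicate block, libraries left out and the mean over transcripts.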

Additional observations from a re-analysis of the deposited data

How the results depend on the processing

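Across 19 alternatives, 453 values for the 8 tested genes kept their side of the threshold, and those called kept their direction. With 1 CPM required in 3 libraries Nefh was not tested, which left 7 genes. The calls of Nefl, Nefm and Stmn2 with 1C-MIM follow from how the set was chosen and say nothing of stability. Leaving out 1 library gave 8 called genes of the set in both comparisons with 1C-MIM, these 3 among them, and 5487 to 7195 genes over the whole table against control and 5267 to 7473 against scramble. Between scramble and control, leaving out 1 library gave 0 to 3 genes, with 3 without control replicate 1, DESeq2 gave 30, and leaving out the 3 libraries numbered 1 gave 96, 81 higher and 15 lower. None of the 8 was among them. The cause was not tested. Nefh against control ranged from 1.37 to 1.97 and Nefl from -2.99 to -2.41. Other scalings moved the median of all genes by at most 0.05 on the log2 scale.

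Same-numbered 1C-MIM libraries were not taken as paired with control (r 0.0841 to 0.194) or with scramble (0.0279 to 0.153), as not every r passed 0.1. These r were all positive, and in 11 of 18 comparisons over the 3 groups a library correlated best with its own number. A weak pairing can therefore not be excluded. With the replicate block 7397 of the 14006 tested genes were called against control and 7309 against scramble. These included 8 of the set in each, a count that contains Nefl, Nefm and Stmn2, which were chosen for their fall. For Nefh, Ina and Stmn3 low counts limit the precision.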
